A study of Mus musculus with 2 samples.

Results

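MHC class I and peptide loading were described here through 10 genes, H2-K1, H2-D1, H2-Q4, H2-T23, B2m, Nlrc5, Tap1, Tap2, Tapbp and Tapbpl, which were taken by symbol from the 25509 genes of the count table. All 10 were present and all 10 passed the filter of at least 10 counts in 1 library or both, as did 12941 genes in all. The data were 2 poly(A) RNA-seq libraries of mouse soft-tissue sarcoma cells, 1 from cells carrying a short hairpin RNA against the circular RNA circCsnk1g3 (shcircCsnk1g3) and 1 from cells carrying the control hairpin (shCTR). Both came from C57BL/6 mesenchymal stem cells that lacked p53 and overexpressed Ccne1. The cells had formed subcutaneous tumors in a first set of mice, had been placed in the lungs of a second set, and were taken back from the lung foci before they were transduced in culture. The comparison asks what silencing of the circular RNA did to the transcripts of the tumor cells themselves. There was 1 library per condition, so no value has a replicate check, no test was made and no p-value is given. The differences below compare the 2 libraries, and any interval covers counting error only.

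An MHC class I molecule consists of a heavy chain, the light chain beta-2-microglobulin and a short peptide, and it displays fragments of the cell's own proteins to CD8+ T cells and to natural killer cells. Peptides made by the proteasome are pumped into the endoplasmic reticulum by the transporter TAP, where tapasin and its partners hold the empty heavy chain until a fitting peptide is bound. Tumor cells often carry low levels of these components, and the transcription of many of them responds to interferon and to the activator NLRC5.

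Depth was similar, at 38792143 counts for shcircCsnk1g3 and 42709996 for shCTR, and all genes tested had a median log2 fold change of 0.00. Csnk1g3 counts came from poly(A) RNA and cannot separate the linear from the circular RNA. The gene had 2159 counts in shcircCsnk1g3 and 2411 in shCTR, a log2 fold change of -0.05 (interval -0.14 to 0.03). Ccne1 had 893 and 963 counts. Trp53, the gene of p53, had 3841 and 4334 counts, so its locus gave reads in cells labelled p53-/-. Of 18 leukocyte markers, 9 were at 0 in both libraries and 13 were at 3 counts or fewer, Ptprc (CD45) had 1 and 0 counts, and the summed count was 174 against 298. Of 10 mesenchymal markers 9 were tested, 2 higher in shcircCsnk1g3 (Col3a1 at 0.37 and Col1a2 at 0.23 on the log2 scale) and 7 lower, from -0.02 for Twist1 to -0.69 for Ly6a, while Thy1 had 0 and 1 counts. Summed counts were 104 and 97 for 8 endothelial markers and 109 and 72 for 9 lung epithelial markers, where Krt8 alone had 92 and 46. The part of these other cell types in the results below was not tested. In bulk RNA, fewer cells of a type and less RNA per cell cannot be told apart.

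The promoters of 7 of the 10 genes were matched in the RefSeq table (GRCm38.p6, 250 bases before to 50 after each start). Nlrc5, Tap2 and Tapbpl were not matched. The first set of sequences is shown because it holds the letters of a kappaB element and of a binding site for interferon regulatory factors in 3 heavy chain genes. Capitals mark GGGNNTTCC and the reverse complement of AANNGAAA.
H2-K1 (chr17:34000429-34000458, - strand): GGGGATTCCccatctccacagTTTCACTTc
H2-D1 (chr17:35262923-35262952, + strand): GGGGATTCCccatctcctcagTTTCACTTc
H2-Q4 (chr17:35379443-35379472, + strand): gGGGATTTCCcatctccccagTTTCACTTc
Against the H2-K1 window, with positions counted from 1 at its 5′ end, H2-D1 differed by A18T, and H2-Q4 by C8T and A18C. These windows started 111, 171 and 174 bases before the RefSeq starts of H2-K1, H2-D1 and H2-Q4. GGGNNTTCC was present in 3 of the 7 promoters, those 3, and in 5.82% of the 32851 promoters of the table, counting both strands.

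The second set is shown because TGAC, the start of the X2 element, and ATTGG, the Y box read on this strand, stood 21 bases apart in the same 3 heavy chain genes and in B2m. Both elements belong to the SXY module through which NLRC5 is known to act.
B2m (chr2:122147609-122147638, + strand): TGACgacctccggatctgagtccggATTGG
H2-K1 (chr17:34000359-34000388, - strand): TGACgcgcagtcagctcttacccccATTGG
H2-D1 (chr17:35262993-35263022, + strand): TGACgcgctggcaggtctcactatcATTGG
H2-Q4 (chr17:35379513-35379542, + strand): TGACttactggcagttctcacccccATTGG
The H2-D1 and H2-Q4 windows were each identical to that of H2-K1 at 23 of 30 positions, and the B2m window at 13. This spacing was present in 0.253% of all promoters (83 of 32851, either strand), and it was not found in Tapbp, Tap1 or H2-T23. The spacing was chosen after the promoters had been seen. TGACG alone was present in 5 of 7 promoters (B2m, H2-K1, H2-D1, H2-Q4 and Tap1) against 20.8% of all, and CCAAT in all 7 against 37.4%. In B2m, H2-K1 and H2-D1 a TGACG match is the start of the spaced pair, and in these and H2-Q4 a CCAAT match is its end. GAAANNGAA, a core of the interferon-stimulated response element, was present in B2m and H2-T23 against 8.56% of all. A pair of related forms was added after the promoters had been seen, GAANNGAAA, present in H2-K1, H2-D1 and H2-Q4 against 7.52% of all, and then the shorter AANNGAAA, which lies within every match of that form and was present in 5 of 7 (B2m and H2-T23 besides) against 23.9%. A match of letters is a description of the sequence and not a measured binding site.

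The levels of the 10 genes spanned a wide range within each library. Counts were divided by the length of the longest annotated transcript and scaled to a common sum, 1000000 per library, which allows genes to be compared. B2m, the light chain shared by all class I molecules, stood highest at 1607 in shcircCsnk1g3 and 1559 in shCTR. H2-D1 and H2-K1, the classical heavy chains of this strain, followed at 820 and 733 for H2-D1 and 482 and 419 for H2-K1. Tapbp (tapasin) stood at 86.9 and 84.1. H2-Q4, a Qa-region heavy chain, stood at 48.7 and 28.8, and Nlrc5, the activator of class I transcription, at 17.5 and 13.9. H2-T23, which encodes Qa-1, the ligand of the inhibitory receptor NKG2A, stood at 8.61 and 10.8, and Tapbpl, the tapasin-related peptide editor, at 8.06 and 6.02. The lowest levels were those of both subunits of the peptide transporter, Tap1 at 3.57 and 2.84 and Tap2 at 2.13 and 2.83. The order depended on the length used for 2 neighbouring pairs. In shCTR, Tap1 stood level with Tap2 by the longest transcript but at 0.787 times Tap2 by the union of exons, and in shcircCsnk1g3 Tapbpl passed H2-T23 by the union of exons.

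**Figure D1:**
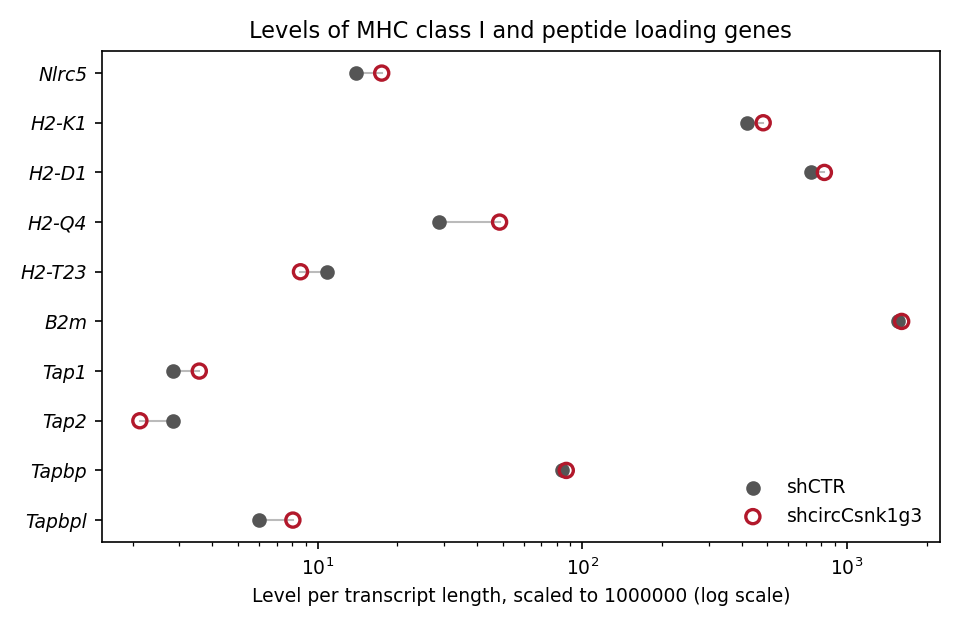
Level of each gene per transcript length, scaled to 1000000 per library (log scale), in shCTR (filled) and shcircCsnk1g3 (open), 1 library each. B2m stands highest at 1607 and 1559, and Tap1 and Tap2 stand lowest, between 2.13 and 3.57.

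Between the libraries, 8 of the 10 genes were higher in shcircCsnk1g3 and 2 were lower, against 50.4% of all genes tested that were higher and 49.6% that were lower. The counting interval lay above 0 for 6 genes and below 0 for 2, where 26.9% and 28.2% of all genes tested did so. Of the set, 1 gene, H2-Q4, was at least 1.5-fold higher, a size that 5.39% of all genes tested reached, and 0 were at least 1.5-fold lower, against 6.31%. The median log2 fold change of the 10 genes was 0.14, against 0.00 for all genes tested. When values were centred on housekeeping genes, which adds the same amount to every gene, these medians were 0.23 and 0.09.

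Nlrc5 had 2093 counts in shcircCsnk1g3 and 1847 in shCTR, or 53.4 and 43.7 CPM (counts per 1000000 after TMM scaling). Its log2 fold change was 0.29 (interval 0.20 to 0.38). The activator was thus higher in the shcircCsnk1g3 library by more than counting error.

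Among the heavy chains, H2-Q4 showed the largest difference of the 10 genes. It had 1999 counts in shcircCsnk1g3 and 1310 in shCTR (51.0 and 31.0 CPM), a ratio of 1.64 and a log2 fold change of 0.72 (interval 0.62 to 0.82). Of all genes tested, 96.1% had a lower log2 fold change. H2-K1 had 14291 and 13775 counts (364 and 326 CPM) and a log2 fold change of 0.16 (interval 0.13 to 0.19), or 0.25 when centred on housekeeping genes. H2-D1 had 27291 and 26989 counts (696 and 639 CPM) and a log2 fold change of 0.12 (interval 0.10 to 0.15), or 0.22 when so centred. The classical chains were therefore higher by small amounts that their high counts placed outside counting error. H2-T23 was the heavy chain on the other side, with 360 and 501 counts (9.18 and 11.9 CPM) and a log2 fold change of -0.37 (interval -0.57 to -0.17).

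Close paralogs limit how far single heavy chains can be read, because the estimated counts divide reads that match several genes. The read length is not given in the sources used here, so shared stretches were counted at 3 lengths. Windows were taken from the longest transcript of each gene. Of the 50-base windows of H2-Q4, 22.03% were also present in a transcript of another gene, against 8.11% for H2-K1, 14.3% for H2-D1 and 14.96% for H2-T23. At 75 bases the shares were 7.22% for H2-Q4, 1.33% for H2-K1, 6.90% for H2-D1 and 7.01% for H2-T23. At 100 bases H2-Q4, at 2.24%, stood below H2-D1 at 4.64% and H2-T23 at 3.93%, and H2-K1 had 0. H2-Q6 was the gene that shared the most windows with H2-Q4 at each length. H2-Q4 also shares 496 exon bases with the antisense gene Gm11131. The sum of the 4 heavy chains does not depend on how they share reads among themselves. It was 43941 in shcircCsnk1g3 and 42575 in shCTR (1121 and 1008 CPM), a log2 fold change of 0.15 (interval 0.13 to 0.17), or 0.25 when centred on housekeeping genes. Over all 28 class I heavy chain genes of the table the sum was 45695 and 44305, with the same log2 fold change of 0.15.

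**Figure D2:**
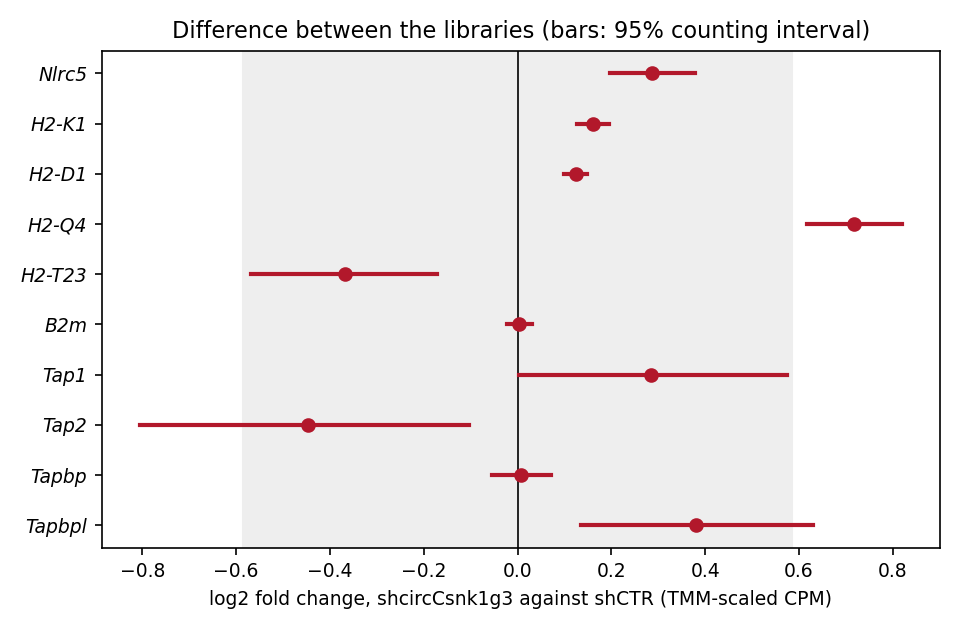
Log2 fold change of TMM-scaled CPM in shcircCsnk1g3 against shCTR for each gene, 1 library each, with bars for the 95% counting interval and grey for changes under 1.5-fold. H2-Q4 at 0.72 lies outside the grey band, and H2-T23 and Tap2 lie below 0.

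Shares within a library need no scaling between libraries. H2-Q4 made up 4.37% of class I heavy chain counts in shcircCsnk1g3 (exact binomial interval 4.19 to 4.57) and 2.96% in shCTR (2.80 to 3.12). H2-T23 made up 0.788% (0.709 to 0.873) and 1.13% (1.03 to 1.23). H2-D1, the main chain by counts, made up 59.7% (59.3 to 60.2) and 60.9% (60.5 to 61.4). The intervals of these 3 genes did not overlap between the libraries, by counting error alone. For fold changes, another measure, 26.9% of all genes tested had an interval above 0 and 28.2% one below. How often share intervals fail to overlap over all genes was not computed. A share depends on the other heavy chains, and that of H2-D1 was lower though its log2 fold change was 0.12 (interval 0.10 to 0.15). H2-K1 made up 31.3% and 31.1%, and H2-T22, a nonclassical chain, 3.37% and 3.35%, with overlapping intervals.

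**Figure D3:**
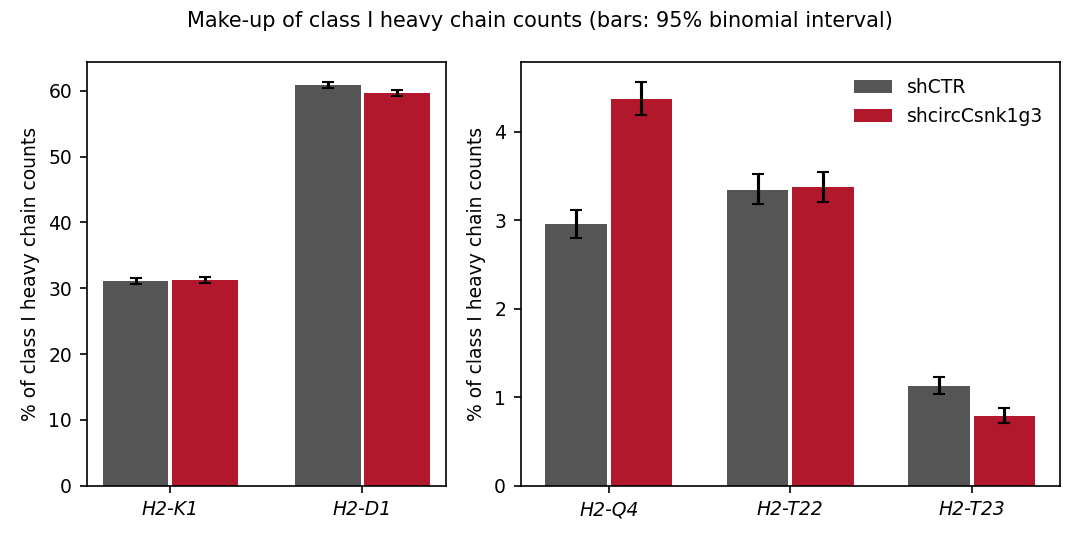
Share of all class I heavy chain counts (%) taken by each of 5 genes in shCTR (grey) and shcircCsnk1g3 (red), 1 library each, with 95% exact binomial intervals; the panels differ in scale. H2-Q4 takes 4.37% against 2.96% and H2-T23 0.788% against 1.13%.

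The other 24 class I heavy chain genes of the table were mostly near 0, with 20 at 3 counts or fewer in both libraries. Of the 4 tested, H2-T22 had 1542 and 1483 counts (log2 fold change 0.16), H2-M3 had 98 and 138 (-0.38), H2-T24 had 69 and 78 (-0.07) and H2-Q10 had 31 and 22 (0.56, interval -0.23 to 1.46). H2-M3 presents formylated peptides, and H2-T22 binds gamma delta T cell receptors.

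B2m had 21871 counts in shcircCsnk1g3 and 23498 in shCTR, which were 558 and 556 CPM. Its log2 fold change was 0.00 (interval -0.02 to 0.03). B2m made up 32.4% (32.0 to 32.7) of the counts of B2m and all heavy chains in shcircCsnk1g3 and 34.7% (34.3 to 35.0) in shCTR. The summed heavy chain counts, most of them from H2-D1 and H2-K1, were thus higher relative to the light chain in the shcircCsnk1g3 library, while H2-T23, H2-M3 and H2-T24 had log2 fold changes below that of B2m.

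The loading genes went in different directions. Tap1, which with Tap2 forms the transporter, had 221 and 195 counts (5.64 and 4.62 CPM) and a log2 fold change of 0.29, with an interval whose lower end was above 0 by less than rounding (0.00 to 0.57). Tap2 had 116 and 171 counts (2.96 and 4.05 CPM) and a log2 fold change of -0.45 (interval -0.81 to -0.10). Tap1 therefore made up 65.6% (60.2 to 70.6) of the counts of the pair in shcircCsnk1g3 and 53.3% (48.0 to 58.5) in shCTR. Both are low counts, and Tap2 shares 533 exon bases with Gm15821 on the opposite strand, which had 0 counts in both libraries.

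Tapbp, the tapasin that bridges TAP and the heavy chain, had 3986 and 4271 counts (102 and 101 CPM) and a log2 fold change of 0.01 (interval -0.05 to 0.07). It shares 904 exon bases with the antisense gene Gm19412, and 149 with Zbtb22 on the same strand, which had 1670 and 1631 counts. Tapbpl had 300 and 248 counts (7.65 and 5.87 CPM) and a log2 fold change of 0.38 (interval 0.13 to 0.63). Tapbpl is known to edit peptides outside the loading complex. Its share of the counts of both tapasins was 7.0% (6.25 to 7.80) in shcircCsnk1g3 and 5.49% (4.84 to 6.19) in shCTR. Per length, Tapbp stood 10.8 times above Tapbpl in shcircCsnk1g3 and 14.0 times in shCTR.

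Beyond the 10 genes, transcription regulators of class I were mostly higher in shcircCsnk1g3. Of 18 tested, 13 were higher and 5 lower, and the median was 0.18. The list holds repressors, Polycomb subunits among them, beside activators, so these counts do not describe activators alone. The interval lay above 0 for 12, against 26.9% of all genes tested, and below 0 for 5, close to the 28.2% of all genes tested. Among the highest were Irf9 (2196 and 1073 counts, log2 fold change 1.14), Stat2 (1290 and 756, 0.88) and Irf1 (2093 and 1669, 0.43), which carry interferon signals to promoters. The lowest were Atf1 (2956 and 4582, -0.52), which binds cyclic AMP response elements, Rfxap (-0.19), a subunit of the RFX complex, Irf2 (-0.16) and Eed (-0.12), a Polycomb subunit. Among 7 interferon receptors and kinases, 4 stood higher and 3 lower (median 0.06), against 50.4% and 49.6% of all genes tested. Of these 7, the interval lay above 0 for 2 and below 0 for 2.

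A list of loading chaperones together with genes of glycan trimming, protein import and disposal in the endoplasmic reticulum stood on the other side. Of 10 tested, 9 were lower in shcircCsnk1g3, each with an interval below 0, and 1 was higher, where 49.6% of all genes tested were lower and 28.2% had an interval below 0. The median was -0.21, and -0.12 when values were centred on housekeeping genes. Pdia3 (ERp57), a partner of tapasin in the loading complex, had 13107 and 21854 counts (log2 fold change -0.63), and Calr (calreticulin), which holds the heavy chain in that complex, had 33315 and 50090 (-0.48). Edem1, of glycoprotein disposal, had 3738 and 5349 (-0.41). Canx (calnexin) was at -0.04, and Prkcsh, a glucosidase subunit, at 0.02. The 15 housekeeping genes also had 13 lower, with a median of -0.09, and their interval lay below 0 for 9 and above 0 for 1.

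Genes that supply peptides were split, with 7 of 14 higher and 7 lower and a median of 0.03. Erap1, which trims peptides in the endoplasmic reticulum, had 1052 and 940 counts (log2 fold change 0.27), and Psme1, of the proteasome activator, 2361 and 2306 (0.14). On the lower side, Psme3, of another proteasome activator, had 5548 and 6834 (-0.19, interval -0.24 to -0.14), and the peptidases Thop1 and Lap3 stood at -0.19 and -0.10, also with intervals below 0. Psmb8, an immunoproteasome subunit, had 73 and 91 counts (-0.21, interval -0.67 to 0.25). Its share of the counts of Psmb8 and its constitutive counterpart Psmb5 was 1.30% (1.02 to 1.63) in shcircCsnk1g3 and 1.53% (1.23 to 1.87) in shCTR, and these intervals overlapped. Psmb10, another immunoproteasome subunit, had 618 and 600 counts (0.15, interval -0.01 to 0.31). It made up 10.08% (9.34 to 10.9) of the counts of Psmb10 and its counterpart Psmb7 in shcircCsnk1g3 and 8.90% (8.23 to 9.60) in shCTR, again with overlapping intervals. The 3 constitutive catalytic subunits had intervals that all included 0, as did those of 5814 of the 12941 genes tested. The median of the 3 subunits was 0.02, and 0.08 with the correction for GC content and length.

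Among 13 genes of class I trafficking and turnover, 3 stood higher and 10 lower, against 50.4% and 49.6% of all genes tested. The interval lay above 0 for 3 and below 0 for 7, against 26.9% and 28.2%. The median was -0.09, as was that of the housekeeping genes to 2 decimals, and 0.0031 when centred on them. Of 6 tested class I-like genes, 3 were higher, Mill2 (30 and 14 counts, 1.10), Hfe (120 and 79, 0.70), of iron control, and Cd1d1 (158 and 115, 0.56), which presents lipids, and 3 were lower, among them Procr (925 and 1368, -0.46). The 3 tested NKG2D ligand genes had log2 fold changes of -0.17 (Raet1d), -0.19 (Ulbp1) and -0.94 (Raet1e, 16 and 35 counts), and the intervals of Raet1d and Ulbp1 included 0. MHC class II genes were mostly near 0. Of its 13 genes 9 were at 3 counts or fewer in both libraries, H2-Aa, H2-Ab1 and H2-Eb1 were at 0 in both, and the activator Ciita had 0 and 1 counts. Of the 4 tested, Ifi30 was higher, with 1582 and 1470 counts (0.21, interval 0.11 to 0.32). Cd74, H2-DMa and H2-DMb1, all at low counts, were lower, with intervals that included 0.

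**Figure D4:**
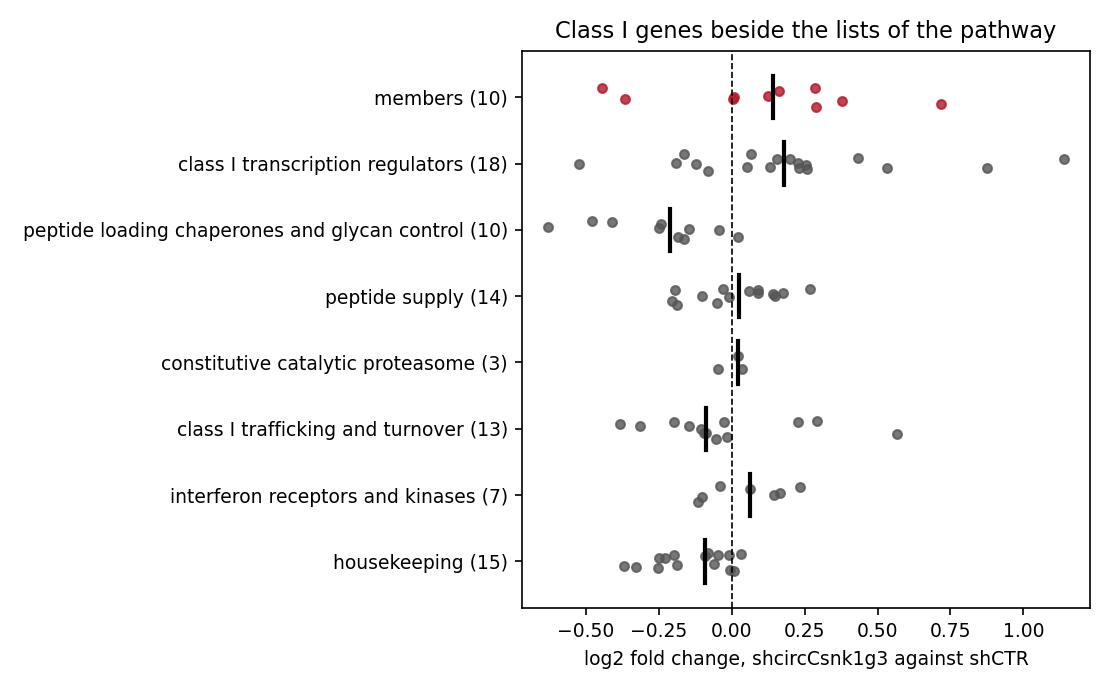
Log2 fold change in shcircCsnk1g3 against shCTR for the tested genes of 8 lists (number tested in brackets), 1 point per gene, with a thick bar for the list's median and a dashed line for the median of all genes tested. The class I genes (red) have a median of 0.14, the regulators 0.18 and the list of loading chaperones and glycan control -0.21.

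Of the 10 genes, 7 lie on chromosome 17 and 6 of these, all but Tapbp, lie between H2-K1 and H2-M2 (chr17:33996017-37483552), which held 86 tested genes. Of these 42 were higher and 44 lower in shcircCsnk1g3, with a median of -0.00. The 8 tested heavy chains of the interval had a median of 0.14, with 5 higher and 3 lower, and the other 78 genes a median of -0.01. H2-Q4 (chr17:35379617-35385290) and H2-D1 (chr17:35262730-35267499) are neighbours among the tested genes, yet had log2 fold changes of 0.72 and 0.12. H2-K1 lies at chr17:33996017-34000347, Tap1 at chr17:34187553-34197225, Tap2 at chr17:34203527-34216321, H2-T23 at chr17:36029773-36032855 and Tapbp at chr17:33915899-33929292. B2m lies at chr2:122147686-122153083, Nlrc5 at chr8:94434356-94527272 and Tapbpl at chr6:125223933-125231860, all on GRCm38 in GENCODE M21.

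**Figure D5:**
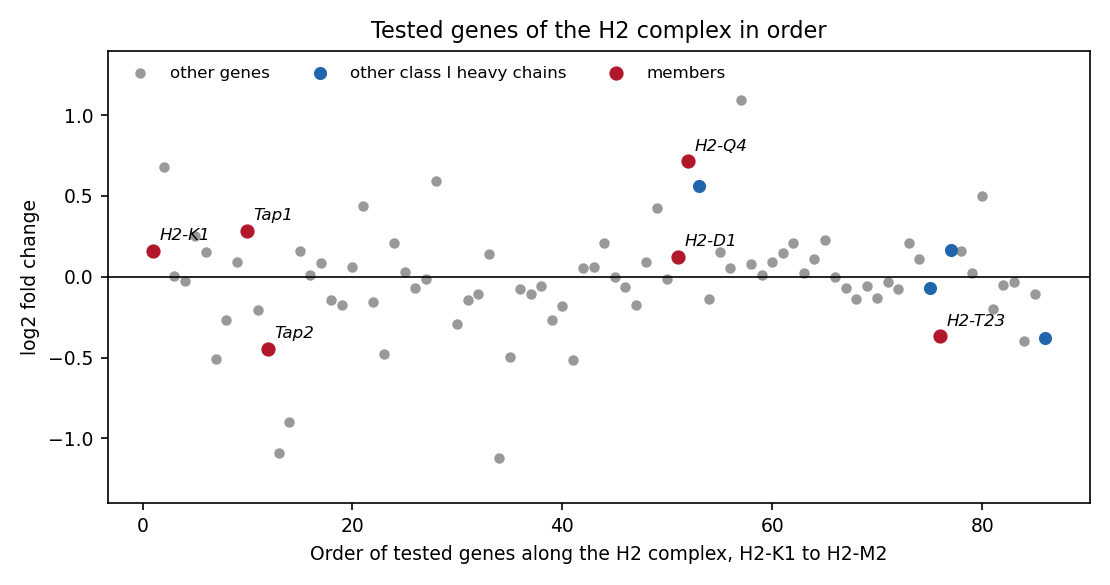
Log2 fold change in shcircCsnk1g3 against shCTR of 85 tested genes from H2-K1 to H2-M2, in order along chromosome 17, 1 library each; 1 further gene, with 0 counts in a library, is not drawn. Members of the set (red) lie on both sides of 0, from -0.45 for Tap2 to 0.72 for H2-Q4.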

How the data were processed

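Poly(A) RNA of 2 samples was sequenced with a stranded kit, 1 library per condition. The authors aligned reads with STAR to GRCm38 and summarised them per gene with RSEM. The GENCODE release is not given in the sources used here. The deposited table of estimated counts, rounded to whole numbers, was the main source. The deposited TMM-scaled table is a signal in which each of the authors' columns equals the counts times a constant, and it served as an alternative. The 92 spike-in rows, all at 0, were left out.

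TMM factors came from edgeR 4.0.16 in R 4.3.3. A gene entered if either library held 10 or more of its counts. Log2 fold changes used a prior count of 2, which shrinks low genes. Ratios have 95% Clopper-Pearson intervals, and shares exact binomial ones. Reads carry no molecular identifiers, so these cover counting error only. A count of 3 is 0.0765 CPM in shcircCsnk1g3 and 0.0710 in shCTR. Of 25509 genes, 25251 matched GENCODE M21. Intervals were computed with scipy 1.17.1, tables with pandas 2.3.3 and figures with matplotlib 3.10.9 (python 3.11.15). The log2 fold change and its counting interval, and no other step, were tested on simulated counts.

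The 10 genes and the comparison lists were chosen with earlier results of these data known. All 10 are described. Lists of up to 12 tested genes could be named freely, and longer ones by their 4 highest and 4 lowest genes with at least 50 summed counts. A result for 1 gene under this rule is left out here. Alternatives were DESeq2 1.42.0 size factors, total counts, prior counts of 0.5 and 10, other count filters, a 2-fold threshold, a correction by GC content and length, the union exon length and, added after seeing the data, centring on housekeeping genes and 3 further promoter motifs.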

Additional observations from a re-analysis of the deposited data

How the results depend on the processing

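No paired analysis was possible because each condition had 1 library and the labels give no replicate numbers. Of 90 values of the 10 genes under the alternatives, 80 stayed within their counting interval, 10 moved beyond it and 0 changed sign past it. Part of this was fixed in advance, because the other count filters leave the value of a single gene as it is. The deposited scaled table, being the counts times a constant, could differ only through scaling and the prior count. The median of the 10 genes was 0.17 with total counts, 0.18 with the correction for GC content and length, and 0.23 when centred on housekeeping genes. The summed heavy chains had a log2 fold change of 0.18 with total counts and 0.25 when centred on housekeeping genes. These settings moved the median of all genes, total counts by 0.03 and housekeeping centring by 0.09. At a 2-fold threshold 0 of the 10 genes passed. Tap1 over Tap2 per length in shCTR was 0.79 with the union exon length. Of 128 list medians, 117 stayed within their interval, 10 moved and 1 reversed, that of class I trafficking and turnover, which was 0.0031 when centred on housekeeping genes, a setting that adds the same amount to every gene. The median of class I-like genes, 0.20 over 6 genes, was -0.16 in the deposited scaled table and -0.18 under the highest count minimum, where fewer of its genes were tested. B2m and Tapbp, whose values lay near 0, ranged from 0.00 to 0.10 and from -0.00 to 0.10. With the correction for GC content and length, 7 of the 10 genes were above 0, against 8 in the main setting. With 1 library per condition, differences between cultures cannot be told apart from those of the hairpins.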
